A study of Homo sapiens with 14 samples.

Results

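The 8 genes described here encode the 7SK small nuclear ribonucleoprotein and the kinase that it holds inactive, the positive transcription elongation factor b (P-TEFb). They were taken by symbol (RN7SK, HEXIM1, HEXIM2, LARP7, MEPCE, CDK9, CCNT1 and CCNT2), and the reads of all transcripts of each gene were summed, which gave 8 genes of the 60876 in the deposited tables. MDA-MB-231, an established human line of triple-negative breast cancer with mesenchymal features, was profiled by sequencing of poly(A)-captured RNA in 14 libraries, 2 for each of 7 groups. The groups were an untreated control and cells given 5 µM of RBI2, a small-molecule inhibitor of ribosome biogenesis, or 5 µM of CX-5461, an inhibitor of RNA polymerase I, with labelled times of 10, 30 and 120 min. All groups were the same line, kept overnight in the same serum-containing medium, and the study's text refers to its control both as untreated and as DMSO-treated. The names of the deposited tables carry the codes 02, 10 and 30 for the libraries labelled 10, 30 and 120 min, so each statement on time below holds for the label. Should the code 02 mean hours, the labels may be shifted against the true times and their order may change, which was not tested. Nothing in the labels says that the 2 replicates of a group came from separate cultures, so the p-values measure only the spread between these libraries. In such bulk libraries a change in the share of cells that express a gene and a change in RNA per cell cannot be told apart.

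P-TEFb is a kinase, CDK9, bound to cyclin T1 or cyclin T2, and it releases paused RNA polymerase II into elongation by phosphorylating the polymerase and the factors that hold it. A large share of P-TEFb in dividing cells is kept inactive in a complex with 7SK RNA, in which MEPCE caps the RNA at its 5′ end, LARP7 binds its 3′ end, and HEXIM1 or HEXIM2 binds both the RNA and the kinase. HEXIM1 is also known as a transcript that goes up when P-TEFb is set free, as after bromodomain inhibitors or hexamethylene bisacetamide, and it is used as a marker of that release. 7SK itself is made by RNA polymerase III and carries no poly(A) tail.

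RN7SK is shown because it was the member that differed most between groups. It lies on GRCh38 at chr6:52995621-52995948 on the plus strand, is 328 bases long, has 1 exon and is annotated as a small nuclear RNA. The first 300 bases (chr6:52995621-52995920) are printed below in DNA letters, 5′ to 3′. Capitals mark GATC, which occurs 3 times in the RNA, at bases 12 to 15, 41 to 44 and 63 to 66. GAUC in the 5′ hairpin of 7SK is known to belong to the site where HEXIM1 binds. The longest run of A in it is 3 bases.
RN7SK: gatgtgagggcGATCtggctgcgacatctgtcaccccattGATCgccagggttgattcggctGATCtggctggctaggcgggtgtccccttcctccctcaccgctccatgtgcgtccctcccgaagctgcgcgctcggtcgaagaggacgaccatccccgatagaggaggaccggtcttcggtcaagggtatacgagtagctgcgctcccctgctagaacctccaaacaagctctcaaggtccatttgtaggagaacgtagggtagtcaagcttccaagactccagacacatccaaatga

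The libraries held between 14112299 and 24849354 estimated reads (median 16305236), and 15426 genes, all 8 members among them, passed the filter on low counts. Markers of the line were as the label requires, with VIM between 2779 and 3387 CPM (reads scaled to library size), CD44 between 870 and 1252, and AXL and CAV1 above 364 in every library. PGR had no read in any of the 14 libraries, and CDH1 and ESR1 reached at most 0.295 and 0.236 CPM. EPCAM was found at 9.17 to 14.3 CPM and GATA3 at 3.64 to 6.55. The leukocyte, endothelial and basal epithelial markers PTPRC, CD3E, PECAM1, KRT14 and KRT5 stayed at or below 0.406 CPM. Control replicate 2 stood apart, with 20.6% of its reads on mitochondrial genes against 8.14% to 11.3% in the other libraries, and the 6 comparisons with the control all rest on this library and 1 other.

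Across genes, levels were compared per unit of length, as the deposited TPM, reads scaled to transcript length and depth, summed over each gene. By the median over the 14 libraries, the order was LARP7 (90.3 TPM), CDK9 (57.0), HEXIM1 (36.8), MEPCE (33.3), CCNT2 (10.1), CCNT1 (6.70) and HEXIM2 (4.57). RN7SK was listed at 16.2 TPM and is kept out of this order, since 7SK has no poly(A) tail and poly(A) capture does not measure its abundance against mRNAs. Messenger RNA for the kinase thus stood above that of either of its cyclins, and CCNT1 was listed at 0.0839 to 0.194 of the CDK9 level in the 14 libraries. HEXIM1 mRNA stood at 0.563 to 0.828 of the CDK9 level. Levels within a gene are given as CPM, the reads scaled to library size with the trimmed mean of M-values (TMM).

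**Figure D1:**
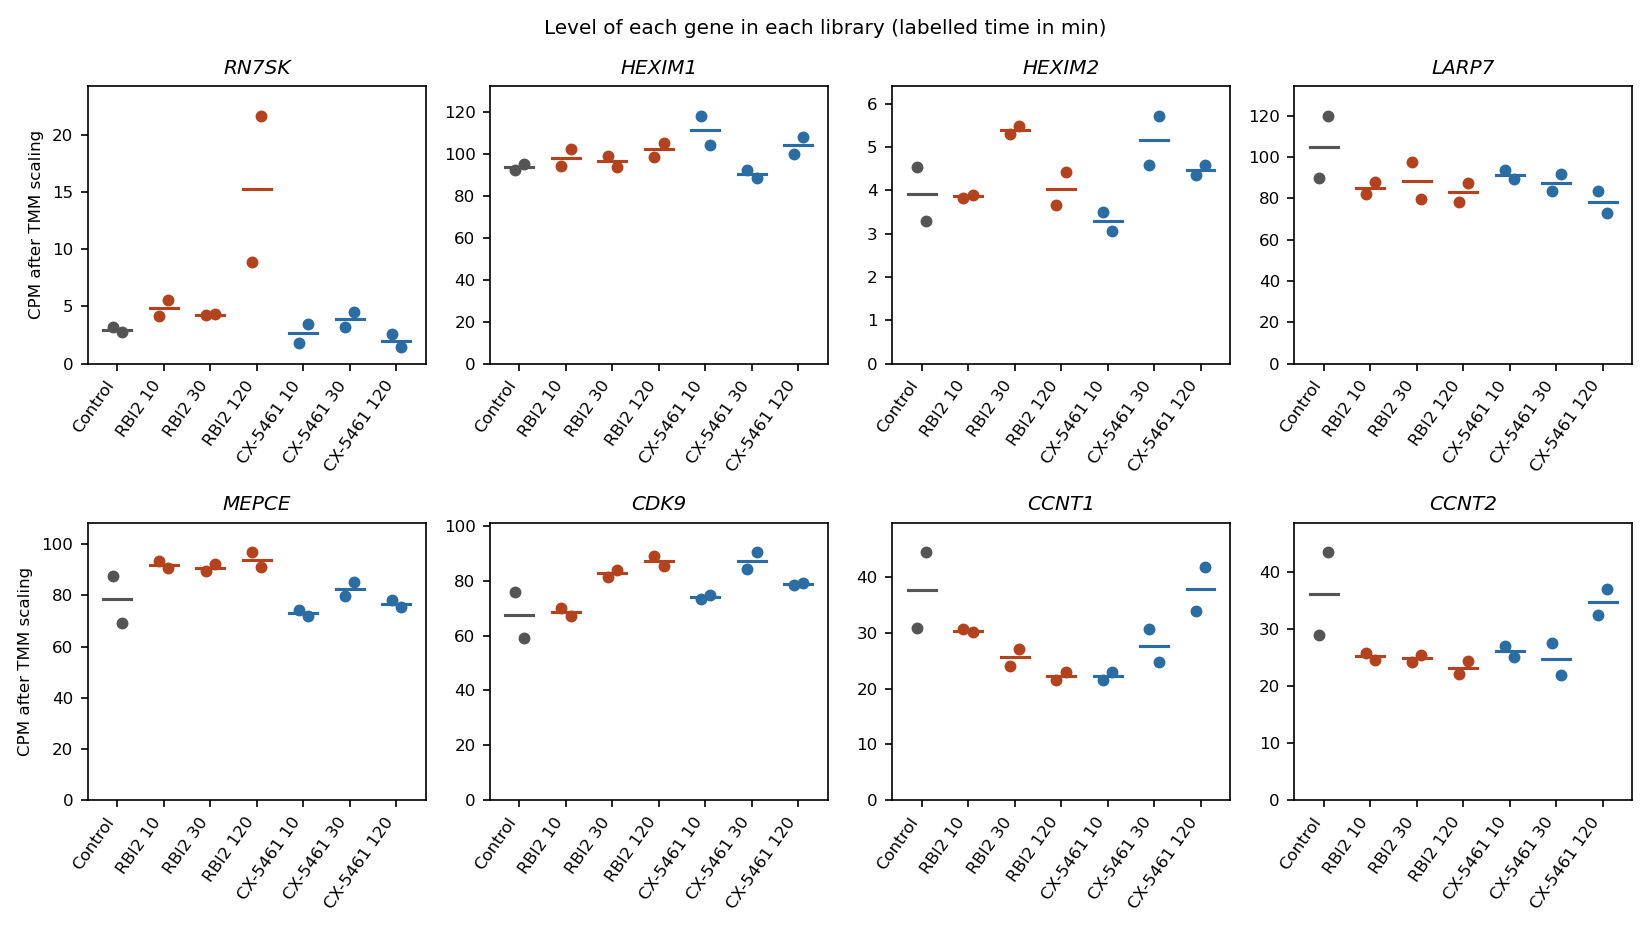
Level of each of the 8 genes (CPM after TMM scaling, linear axis from 0) in each of the 14 libraries, with 2 points per group, a bar at the group mean, and labelled times in min. RN7SK reached 8.85 and 21.7 CPM in the RBI2 120 min libraries and stayed at or below 5.56 elsewhere, while HEXIM1 kept between 88.2 and 118 CPM throughout.

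With RBI2 labelled 120 min, 1 of the 8 members, RN7SK, was called against the control, where 1.82% of all genes tested were. A call needed both an adjusted p under 0.05 and a difference of at least 1 in either direction on the log2 scale. RN7SK had 150 and 300 reads in the 2 RBI2 120 min libraries, which is 8.85 and 21.7 CPM. The control libraries held 51 and 35 reads, or 3.17 and 2.80 CPM. Both treated libraries lay above both controls, and also above each of the other 10 libraries, of which the highest was at 5.56 CPM. The group means were 15.3 ± 9.12 CPM (SD, n = 2) and 2.98 ± 0.264 CPM (SD, n = 2). RN7SK rose by 2.34 on the log2 scale (SE 0.44), or 5.07-fold, at an adjusted p of 0.012 (quasi-likelihood test of edgeR, adjusted by Benjamini-Hochberg). The 2 treated libraries differed from each other, and the call did not hold without RBI2 120 min replicate 2 (log2 fold change 1.56, adjusted p = 0.0734) or with only the 4 libraries of the comparison in the model (2.35, adjusted p = 0.301).

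The earlier RBI2 labels showed smaller values. With RBI2 labelled 10 min, RN7SK stood at 4.13 and 5.56 CPM, and with RBI2 labelled 30 min at 4.21 and 4.35 CPM. All 4 of these libraries were above the controls, but the differences (log2 fold changes 0.69, SE 0.46, and 0.51, SE 0.46) did not pass the test (adjusted p = 0.5 and 0.485). Between labels, RBI2 120 min was higher than RBI2 10 min by 1.65 (SE 0.41, adjusted p = 0.0441), which made RN7SK the 1 member called in that comparison, where 0.694% of all genes were. That call was lost, at adjusted p-values of 0.0521 to 0.301, without any one of the 12 treated libraries, and without RBI2 120 min replicate 2 the difference was 0.87. Against RBI2 30 min the difference was 1.83 (SE 0.42, adjusted p = 0.222), a call that DESeq2 made (adjusted p = 0.0163; adjusted p-values over all alternatives ranged from 2.7e-12 to 1).

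CX-5461 gave no call for RN7SK against the control at any label. The libraries labelled 10 min held 1.83 and 3.50 CPM, those labelled 30 min 3.20 and 4.52 CPM, and those labelled 120 min 2.57 and 1.45 CPM. The log2 fold changes against the control were -0.17 (95% interval -1.22 to 0.89), 0.37 (-0.67 to 1.40) and -0.54 (-1.61 to 0.52), intervals that still admit differences of 2-fold. The compounds were compared directly at the same dose and label in 3 pairs, each adjusted over all genes. At 120 min RN7SK was 7.39-fold higher with RBI2 than with CX-5461 (log2 difference 2.89, SE 0.44, 95% interval 1.91 to 3.87, adjusted p = 0.00692 by the same test), the 1 member called where 1.67% of all genes were. This call was lost without RBI2 120 min replicate 2 (2.10, adjusted p = 0.0677) and without CX-5461 120 min replicate 2 (2.60, adjusted p = 0.0575). At 10 min and 30 min the differences were 0.86 (-0.14 to 1.86) and 0.15 (-0.83 to 1.13), and neither passed.

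The order of the RN7SK group means ran from CX-5461 120 min (2.01 CPM) through CX-5461 10 min (2.67), the control (2.98), CX-5461 30 min (3.86), RBI2 30 min (4.28) and RBI2 10 min (4.84) to RBI2 120 min (15.3). Among neighbours in this order, the control and CX-5461 30 min did not overlap, nor did RBI2 10 min and RBI2 120 min. The libraries of the other 4 neighbouring pairs overlapped. The share of all genes whose libraries separate in this way is not given here, so such separations, above and below, describe these libraries alone.

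RN7SK reads are uncertain between near-identical copies. All 298 of its distinct stretches of 31 bases also occur in a duplicate annotation of the same locus, named 7SK, to which every library assigned 0 reads. A further 102 genes share 267 of them, or 89.6%. The tables list 291 RN7SK pseudogenes, 40 of which held a read, and together these held 16.4 to 33.8 reads in a library, or 8.38% to 41.4% of the family. The pseudogene sum was 17.9 and 19.0 reads in the controls and 33.8 and 27.4 reads with RBI2 120 min. Most of the difference between these groups was thus assigned to RN7SK, a split that the shared stretches leave uncertain. Summed with its pseudogenes, RN7SK was 2.0 higher on the log2 scale with RBI2 120 min than in the control (adjusted p = 0.0103) and 2.53 higher than with CX-5461 120 min (adjusted p = 0.00661).

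**Figure D2:**
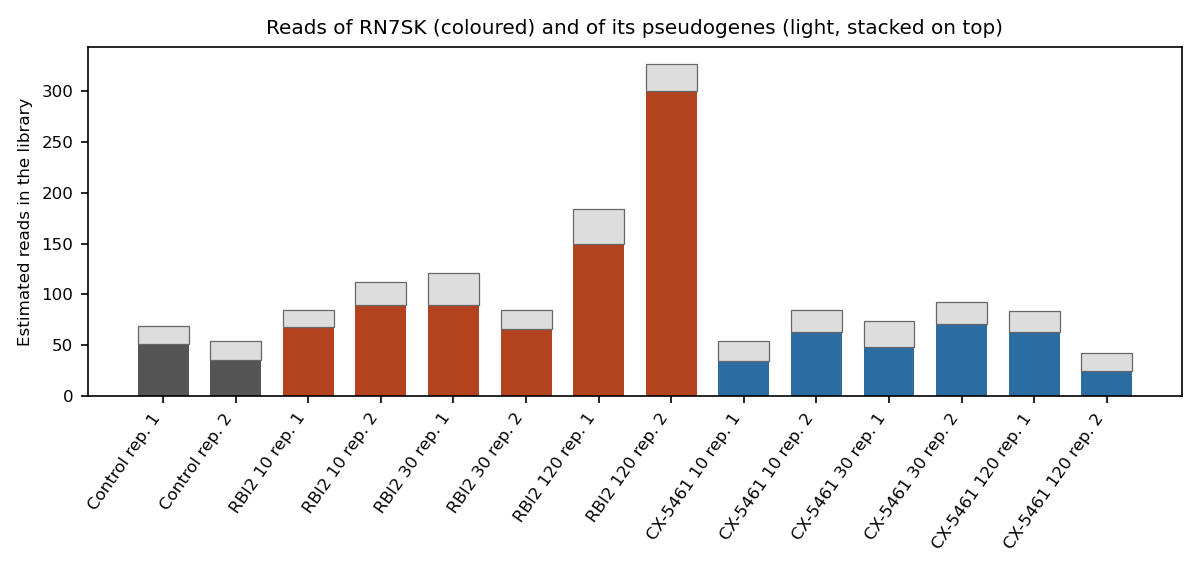
Estimated reads assigned to RN7SK (coloured bars) and to its 291 annotated pseudogenes (light bars stacked on top) in each of the 14 libraries, not scaled for library size. RN7SK held 150 and 300 reads in the RBI2 120 min libraries and 25 to 90 reads in the other 12.

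Some other short RNAs without a poly(A) tail were higher in the same libraries as RN7SK. Of 22 such RNAs listed, 21 were found and 4 had enough reads to be tested. With RBI2 120 min against the control, RN7SL1 and RN7SL2, the RNAs of the signal recognition particle, rose by 2.59 (SE 0.61, adjusted p = 0.022) and 2.68 (SE 0.42, adjusted p = 0.00749) on the log2 scale. RMRP, the RNA of RNase MRP, rose by 4.35 (95% interval 1.51 to 7.18, adjusted p = 0.042) from few reads (0.435 and 0 CPM in the controls, 1.18 and 8.91 CPM with RBI2 120 min). RPPH1, the RNA of RNase P, was the one of the 4 that did not pass (1.66, adjusted p = 0.0561). Against CX-5461 120 min all 4 were higher, by 2.71, 3.24, 4.28 and 2.06 in the order RN7SL1, RN7SL2, RMRP and RPPH1. Their adjusted p-values by edgeR, in that order, were 0.0174, 0.0067, 0.0371 and 0.0284. By the call rule 3 of the 4 were called against the control, where 1.82% of all genes tested were. All 4 were called against CX-5461 120 min, where 1.67% of all genes were. Fits without a single library are not given for these 4 RNAs. The 21 RNAs summed to 96.9 and 146 CPM in the RBI2 120 min libraries, 31.9 and 6.79 CPM in the controls, and 17.3 and 14.5 CPM with CX-5461 120 min. They also summed to 60.0 and 72.8 CPM with RBI2 10 min and 51.0 and 35.6 CPM with RBI2 30 min. With CX-5461 they summed to 34.0 and 23.2 CPM at 10 min and 26.6 and 25.5 CPM at 30 min. RN7SL1 differed between the controls themselves, at 14.5 and 1.44 CPM. The study reports that its RBI2 samples held more ribosomal RNA after poly(A) selection than its control and CX-5461 samples, at all times. It proposes that RBI2 leads to polyadenylation of ribosomal RNA precursors. How far RN7SK moved with the recovery of untailed RNA in the poly(A) capture was not tested. Over the 14 libraries, which share this capture, log2 CPM of RN7SK had a Pearson r of 0.68 with RN7SL1 and 0.81 with RN7SL2.

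**Figure D3:**
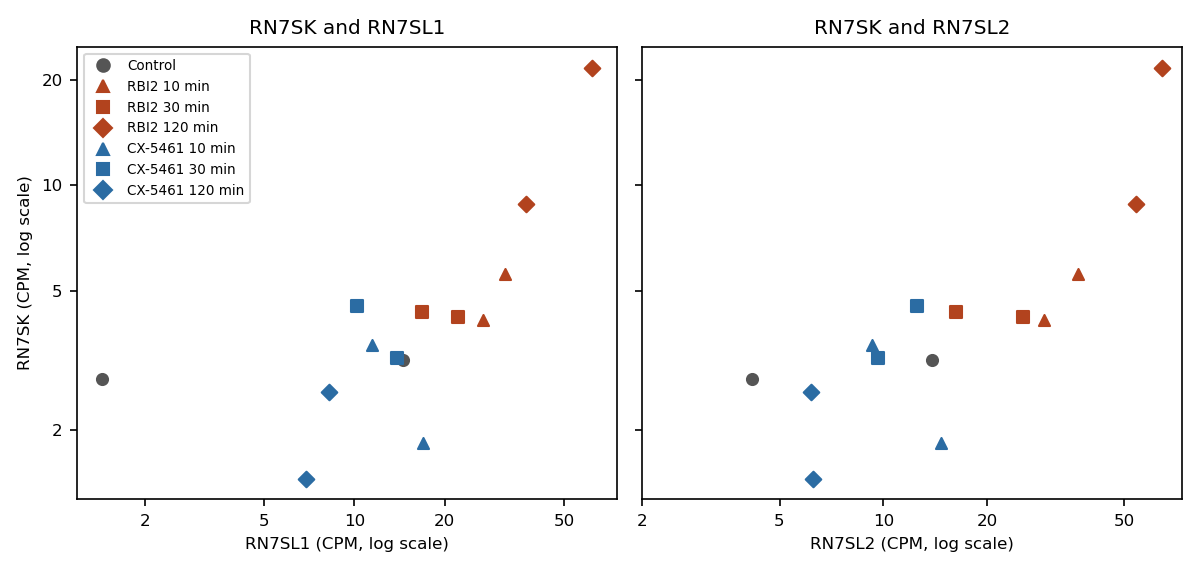
RN7SK against RN7SL1 (left) and RN7SL2 (right) in the 14 libraries, in CPM on log axes, with colour for the compound and marker shape for the labelled time. The RBI2 120 min libraries lie at the upper right in both panels, and control replicate 2 is the lowest for RN7SL1 at 1.44 CPM and for RN7SL2 at 4.15 CPM.

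HEXIM1, the 7SK-dependent inhibitor of P-TEFb, kept a narrow range in CPM. It lies on GRCh38 at chr17:45148475-45152099 on the plus strand, is a protein-coding gene of 1 exon, and had 1191 to 2461 reads in a library. The 2 libraries held 92.2 and 95.1 CPM in the control, 94.0 and 102 CPM with RBI2 10 min, 99.0 and 93.6 CPM with RBI2 30 min, and 98.5 and 105 CPM with RBI2 120 min. With CX-5461 they held 118 and 104 CPM at 10 min, 92.2 and 88.2 CPM at 30 min, and 100 and 108 CPM at 120 min. The highest library was 1.33 times the lowest. Both libraries of CX-5461 10 min, CX-5461 120 min and RBI2 120 min were above the controls. Those of CX-5461 30 min were at or below the lower control. The deposited TPM ran wider, from 22.8 in control replicate 2 to 43.7, and control replicate 1 stood at 35.5. By TPM the treated group means lay at 34.0 to 41.3, above the control mean of 29.1.

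No comparison gave a call for HEXIM1. The difference from the control with the lowest p was that of CX-5461 10 min, at 0.24 on the log2 scale (SE 0.08, 95% interval 0.06 to 0.43, unadjusted p = 0.0144), and it did not pass after adjustment (adjusted p = 0.13, and 0.0712 to 0.6 over the alternatives, DESeq2 among them). With RBI2 the differences were 0.06 (-0.12 to 0.25) at 10 min, 0.04 (-0.14 to 0.23) at 30 min and 0.12 (-0.07 to 0.31) at 120 min. With CX-5461 they were -0.05 (-0.24 to 0.13) at 30 min and 0.15 (-0.03 to 0.34) at 120 min. Each of these 6 intervals ends at or below 0.43, so a HEXIM1 increase of 2-fold lay outside all of them. Between the compounds HEXIM1 differed by -0.18 (-0.36 to 0.00) at 10 min, 0.09 (-0.09 to 0.28) at 30 min and -0.03 (-0.22 to 0.15) at 120 min. Within CX-5461, the 30 min libraries were lower than the 10 min libraries (log2 difference -0.30, SE 0.08, unadjusted p = 0.00466), without passing the adjustment (adjusted p = 0.114).

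HEXIM2, the paralog that can take the place of HEXIM1 in the complex, lies 8600 bases downstream of it on the same strand (chr17:45160700-45170040). It had few reads, 41 to 113 in a library. It held 4.54 and 3.28 CPM in the control, 3.83 and 3.89 with RBI2 10 min, 5.29 and 5.48 with RBI2 30 min, and 3.66 and 4.42 with RBI2 120 min. The CX-5461 libraries labelled 10 min held 3.50 and 3.06 CPM, those labelled 30 min 4.59 and 5.72 CPM, and those labelled 120 min 4.36 and 4.58 CPM. In both compounds the 30 min group had the highest mean. The difference between CX-5461 30 min and 10 min was 0.65 (SE 0.19, adjusted p = 0.129), and between RBI2 30 min and 10 min 0.48 (SE 0.19, adjusted p = 0.473), and neither passed. HEXIM1 and HEXIM2 did not go together over the libraries (Pearson r of log2 CPM -0.46, n = 14).

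The 2 proteins that bind 7SK permanently gave no call. LARP7 (chr4:112637077-112657696, plus strand), which protects the 3′ end of 7SK, had 89.7 and 120 CPM in the controls and 73.1 to 97.4 CPM in the 12 treated libraries. The high control value was that of replicate 2, and control replicate 1 lay within the range of the treated libraries. The largest difference from the control was that of CX-5461 120 min (-0.42, SE 0.14, adjusted p = 0.324). MEPCE (chr7:100428322-100434126, plus strand), the methyltransferase that caps 7SK, had 87.6 and 69.3 CPM in the controls. It stood at 89.4 to 96.9 CPM in the 6 RBI2 libraries and at 71.9 to 85.1 CPM in the 6 CX-5461 libraries. The ranges of the 2 compounds did not overlap, and the share of all genes for which this held is not given here. By edgeR the compounds differed by 0.33 at 10 min (SE 0.10, adjusted p = 0.123). The differences were 0.14 (SE 0.10, adjusted p = 0.858) for 30 min and 0.29 (SE 0.10, adjusted p = 0.0721) for 120 min. DESeq2 passed MEPCE at 120 min by adjusted p, short of the limit on the fold change.

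CDK9 (chr9:127785679-127790792, plus strand), the kinase, and its cyclins differed by less than 2-fold, and are described by the adjusted p alone, with no limit on the fold change. By that rule 4 of the 8 members passed with RBI2 120 min against the control, where 18.0% of all genes did, so the count has to be read against a wide response. These were RN7SK and CDK9, which were higher, and CCNT1 and CCNT2, which were lower. In the comparison of RBI2 with CX-5461 at 120 min 3 of 8 passed (RN7SK higher, CCNT1 and CCNT2 lower), where 16.1% of all genes did. With CX-5461 10 min against the control 1 of 8 passed (CCNT1, lower), where 4.77% of all genes did. DESeq2 also passed CCNT1 with RBI2 30 min against the control, where edgeR gave -0.56 (adjusted p = 0.127). It passed CDK9 with RBI2 120 min against RBI2 10 min too, where edgeR gave 0.34 (adjusted p = 0.0729).

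CCNT1 (chr12:48688458-48716998, minus strand) encodes cyclin T1, the more widely used partner of CDK9. It held 30.9 and 44.5 CPM in the controls and 21.6 and 23.0 CPM with RBI2 120 min. The other RBI2 libraries stood between, at 30.7 and 30.1 CPM for 10 min and 24.1 and 27.1 CPM for 30 min. Within RBI2 the group mean was lower at each longer label. With CX-5461 the order was the opposite, with 21.6 and 23.0 CPM at 10 min, 30.8 and 24.7 CPM at 30 min, and 34.0 and 41.9 CPM at 120 min. The RBI2 120 min and CX-5461 120 min libraries did not overlap, and the share of all genes for which this held is not given here.

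Against the control, CCNT1 was lower with RBI2 120 min (log2 difference -0.76, SE 0.17, adjusted p = 0.0203) and with CX-5461 10 min (-0.75, SE 0.17, adjusted p = 0.0336). Without control replicate 2 they were -0.48 (adjusted p = 0.0679) and -0.47 (adjusted p = 0.15). The first was also lost without RBI2 120 min replicate 1 (-0.68, adjusted p = 0.119) or replicate 2 (-0.81, adjusted p = 0.0893), and the second without any one of 6 of the 14 libraries (adjusted p up to 0.18, without CX-5461 10 min replicate 1). With only the 4 libraries of each comparison neither passed (adjusted p = 0.301 and 0.412). In the comparison of the compounds at 120 min, to which the controls contribute through the shared scaling and estimate of spread, CCNT1 was 1.70-fold lower with RBI2 (log2 difference -0.77, SE 0.17, 95% interval -1.15 to -0.38, adjusted p = 0.018, and 1.2e-05 to 0.126 over the alternatives). It did not pass there without any one of RBI2 120 min replicate 1 or 2 or CX-5461 120 min replicate 2 (adjusted p = 0.119, 0.0905 and 0.126). Within CX-5461, CCNT1 was 0.76 higher at 120 min than at 10 min (SE 0.17, adjusted p = 0.0398), where 3.12% of all genes passed, and this was lost when any one of 10 of the 14 libraries was left out (adjusted p up to 0.313 without CX-5461 120 min replicate 2).

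CCNT2 (chr2:134918235-134959342, plus strand), which encodes cyclin T2, held 29.0 and 43.5 CPM in the controls, 22.1 and 24.4 CPM with RBI2 120 min, and 32.5 and 37.0 CPM with CX-5461 120 min. Its other 8 libraries lay between 21.9 and 27.5 CPM. Control replicate 2 and the pair of CX-5461 120 min libraries were the 3 highest of the 14. The difference of RBI2 120 min from the control was -0.64 (SE 0.18, adjusted p = 0.034), and -0.33 without control replicate 2 (adjusted p = 0.154). It was lost without any one of 5 of the 14 libraries (adjusted p up to 0.183, without RBI2 120 min replicate 1) and with only the 4 libraries of the comparison (adjusted p = 0.303). The difference from CX-5461 120 min was -0.58 (SE 0.17, adjusted p = 0.0452, and 0.00233 to 0.246 over the alternatives). It passed in 9 of 21 alternatives and was lost without any one of 10 of the 14 libraries. Log2 CPM of CCNT1 and CCNT2 had a Pearson r of 0.87 over the 14 libraries, the highest of the 28 pairs of members.

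CDK9 held 75.8 and 59.0 CPM in the controls and 89.0 and 85.3 CPM with RBI2 120 min. It stood at 70.2 and 67.2 CPM with RBI2 10 min, 81.4 and 84.0 CPM with RBI2 30 min, 73.5 and 74.7 CPM with CX-5461 10 min, 84.2 and 90.4 CPM with CX-5461 30 min, and 78.5 and 79.1 CPM with CX-5461 120 min. Control replicate 2 was the lowest of all, and replicate 1 lay inside the range of the treated libraries. The difference of RBI2 120 min from the control was 0.37 (SE 0.10, adjusted p = 0.0358), which became 0.20 without control replicate 2 (adjusted p = 0.134) and 0.25 with an offset for transcript length (adjusted p = 0.191). It passed in 8 of 21 alternatives and was lost without any one of 11 of the 14 libraries, at adjusted p-values up to 0.201. CX-5461 30 min had the highest group mean for CDK9, and its difference from the control was also 0.37 (SE 0.10, adjusted p = 0.213). Between the compounds at 120 min CDK9 differed by 0.15 (95% interval -0.08 to 0.37).

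Control replicate 2 also stood apart in effective transcript length, the length that Salmon uses to turn reads into TPM. Averaged over a gene's transcripts, it was 6489 bases for CCNT1 in that library against 4652 to 6073 in the other 13, and 2772 for CCNT2 against 3001 to 3952. CCNT1 was listed at 6.32 TPM in control replicate 2 and 7.74 TPM in replicate 1, the reverse of their order in CPM, and TPM and CPM differ both in the length they use and in their scaling. With that length as an offset, CCNT1 no longer passed against the control with RBI2 120 min (-0.47, adjusted p = 0.154) but did against CX-5461 120 min (-0.74, adjusted p = 0.0393), and CCNT2 passed in neither (-0.60, adjusted p = 0.205, and -0.55, adjusted p = 0.246). The offset also ended the CCNT1 results for CX-5461 10 min against the control (-0.53, adjusted p = 0.173) and for CX-5461 120 min against 10 min (0.80, adjusted p = 0.0565).

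**Figure D4:**
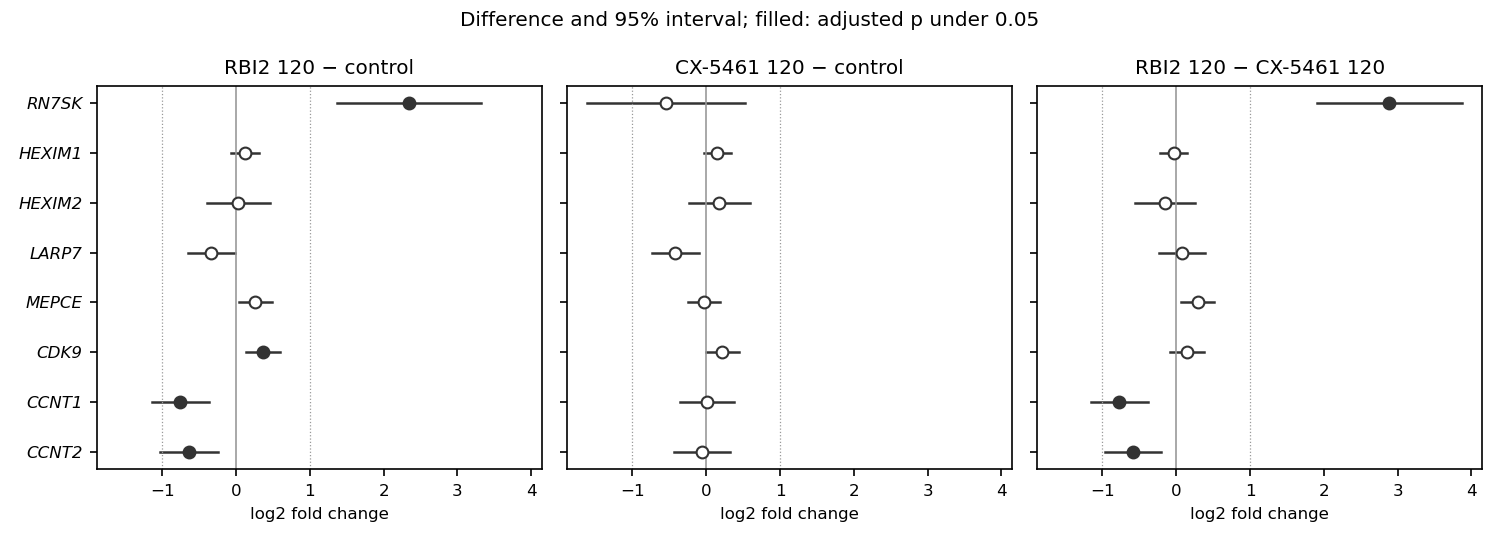
Log2 fold change of each of the 8 genes with its 95% interval for RBI2 120 min minus control, CX-5461 120 min minus control, and RBI2 120 min minus CX-5461 120 min. Filled points have an adjusted p under 0.05, and dotted lines mark a 2-fold difference. RN7SK (2.34 and 2.89) is the member past those lines, and HEXIM1 lies within 0.34 of 0 in all 3 panels at the ends of its intervals.

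In the other comparisons none of the 8 members was called by edgeR. With RBI2 10 min against the control 0.0778% of all genes were called, with RBI2 30 min 0.0389%, with CX-5461 10 min 1.64%, with CX-5461 30 min 0% and with CX-5461 120 min 0.0454%. At an unadjusted p under 0.05, with no limit on the fold change, 2, 4, 3, 3 and 1 members passed in the same order, beside 12.9%, 25.8%, 22.5%, 22.9% and 12.4% of all genes by that rule. DESeq2 called 0 members in each. It gave an adjusted p to only 6 of the 8 members for RBI2 30 min and for CX-5461 120 min against the control. The same held for CX-5461 120 min against 30 min, named below. For RBI2 against CX-5461, 1.04% of all genes were called at 10 min and 0.0130% at 30 min, with 2 and 0 members at an unadjusted p under 0.05 (14.2% and 7.79% of all genes) and 0 called by DESeq2. Within a compound, 0.0583% of all genes were called for RBI2 30 min against 10 min and 0.0130% for 120 min against 30 min, with 2 members each at an unadjusted p under 0.05 (9.21% and 10.3% of all genes), and DESeq2 called 0 and 1 members. For CX-5461 the shares were 0.888% for 30 min against 10 min, 0.888% for 120 min against 10 min and 0.0130% for 120 min against 30 min, with 3 members each at an unadjusted p under 0.05 (11.8%, 20.1% and 19.3% of all genes) and 0 called by DESeq2. Against the control, the median over the 8 members of the log2 fold change lay between -0.18 and 0.12 in the 6 comparisons, beside -0.05 to 0.06 for all genes tested.

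The promoters of CCNT1 and CCNT2 are shown because the levels of these cyclins had the highest correlation across libraries among pairs of members. Each window runs from 250 bases before to 50 bases after a RefSeq start (GRCh38.p14), and 7 of the 8 members had an entry, RN7SK being the other. Both strands were searched for the CCAAT box (CCAAT), the GC box (GGGCGG), the TATA box (TATAAA), the E-box (CACGTG), the cyclic AMP response element (TGACGTCA) and the NRF1 motif. Capitals mark the CCAAT box and the GC box on either strand.
CCNT1 promoter, chr12:48716658-48716957, minus strand: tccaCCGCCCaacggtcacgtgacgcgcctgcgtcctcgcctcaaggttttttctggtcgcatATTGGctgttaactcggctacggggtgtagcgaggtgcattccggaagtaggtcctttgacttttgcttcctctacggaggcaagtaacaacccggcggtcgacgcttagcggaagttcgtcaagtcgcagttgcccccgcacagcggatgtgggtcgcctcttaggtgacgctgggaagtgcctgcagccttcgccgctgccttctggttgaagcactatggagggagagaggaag
CCNT2 promoter, chr2:134918572-134918871, plus strand: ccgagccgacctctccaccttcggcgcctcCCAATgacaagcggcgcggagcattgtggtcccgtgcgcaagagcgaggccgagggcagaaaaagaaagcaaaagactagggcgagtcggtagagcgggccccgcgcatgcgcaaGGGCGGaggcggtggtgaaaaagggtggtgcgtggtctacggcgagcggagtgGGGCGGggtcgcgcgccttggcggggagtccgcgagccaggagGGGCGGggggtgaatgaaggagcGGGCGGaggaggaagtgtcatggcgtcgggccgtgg
Both windows hold the CCAAT box once, and 34.6% of all 35116 windows hold it at least once. The GC box occurs once in CCNT1 and 4 times in CCNT2, and in 45.0% of all windows. Of this pair, the E-box (7.26% of windows) occurs in CCNT1 and the NRF1 motif (1.24%) in CCNT2. The HEXIM1 window holds a TATA box (11.5% of windows), 2 CCAAT boxes and 2 GC boxes. The cyclic AMP response element (1.85% of windows) has no match in these 3 windows, and a second RefSeq window of CCNT1 is not shown. These matches describe letters and not bound sites.

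Transcripts of each member were summed above, and their split is an estimate. RN7SK and HEXIM1 have 1 transcript each in the tables. CCNT1 reads lay at 89.7% to 100% on CCNT1-201, a form of 9 exons. CDK9 reads lay at 78.6% to 92.4% on CDK9-201, with control replicate 2 the lowest. CCNT2 reads were split between CCNT2-202 (40.0% to 67.0%) and CCNT2-201 (22.4% to 52.2%), and MEPCE reads between MEPCE-202 (38.8% to 85.1%) and MEPCE-201 (14.9% to 61.0%). HEXIM2 reads went from 0% to 97.2% on HEXIM2-201 and from 0% to 91.0% on HEXIM2-206, which with 41 to 113 reads leaves no stable split. Transcripts annotated for nonsense-mediated decay took 3.04% to 34.6% of LARP7 reads and 2.54% to 24.0% of CCNT2 reads. Control replicate 2 had the highest share for both, at 34.6% and 24.0%.

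Other genes of the pathway were also read by the adjusted p alone, in the comparisons of RBI2 120 min with the control and with CX-5461 120 min. By that rule 18.0% and 16.1% of all genes passed, and each count below has to be read against those shares. Of the 10 partners of P-TEFb and subunits of the super elongation complex, ELL (0.64, adjusted p = 0.0261) and MLLT1 (0.51, adjusted p = 0.0127) were higher and ELL2 (-0.50, adjusted p = 0.0486) lower than in the control, and EAF1, a partner of the ELL proteins, was lower than with CX-5461 120 min (-0.48, adjusted p = 0.0317). Of the 13 pausing and elongation factors, SUPT5H (0.43, adjusted p = 0.0121), SUPT6H (0.40, adjusted p = 0.0312) and NELFA (0.30, adjusted p = 0.04) were higher. SUPT5H, a substrate of P-TEFb, and SUPT6H, a histone chaperone, were also higher than with CX-5461 120 min (0.34 and 0.44, adjusted p = 0.021 and 0.0237), a comparison that shares the RBI2 libraries.

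Of the 9 other transcription kinases and their cyclins, 4 were lower than in the control, where 9.07% of all genes were lower. They were CCNH (-0.54, adjusted p = 0.0192) and MNAT1 (-0.40, adjusted p = 0.017), partners of CDK7, and CDK8 (-0.40, adjusted p = 0.0486) and its cyclin CCNC (-0.34, adjusted p = 0.0253). CDK8 and CCNC were lower than with CX-5461 120 min too (-0.58 and -0.46, adjusted p = 0.015 and 0.0106). Of 9 other proteins that bind or release 7SK, 1 passed against the control, SRSF2, which was lower (-0.22, adjusted p = 0.0498). At 10 min SRSF2 was higher with RBI2 than with CX-5461 (0.29, adjusted p = 0.0456 by edgeR), which is a different reference. The share of all genes that passed there by adjusted p is not given here. With RBI2 10 min against the control SRSF2 was 0.24 higher and did not pass (adjusted p = 0.223 by edgeR). For RBI2 120 min against the control, the lists' medians were -0.05 for the first list, -0.05 for the pausing and elongation factors, -0.29 for the kinases and -0.13 for the 7SK-binding proteins, against 0.01 over all genes. These genes are named because they passed, and all lay under the 2-fold limit.

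By likeness of log2 CPM over the 14 libraries among 10569 tested genes with a mean of at least 5 CPM, the nearest to RN7SK were CLASRP (Pearson r 0.89), RNF220 (0.88) and TEAD4 (0.87). CLASRP ranked only 727 by Spearman's rho (0.60), while RNF220 and TEAD4 ranked 3 and 4 (0.93 and 0.91). The nearest to HEXIM1 were USP27X (0.83, rank 6 by Spearman's rho), ENSG00000291006 (0.83, rank 29) and PER2 (0.80, rank 60). Values as high were found for CCNT1 with CCNA2 (0.98), CCNT2 with RIMOC1 (0.98), CDK9 with PIGQ (0.97), LARP7 with GNG5 (0.96), MEPCE with ENSG00000271936 (0.95) and HEXIM2 with ZNHIT2 (0.88). The 14 points share the 2 replicates of each group and their depth, and these values describe the libraries alone.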

How the data were processed

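Poly(A) RNA of MDA-MB-231 cells was captured with a stranded mRNA kit. Per the study's methods, the authors took out reads that aligned to the ribosomal DNA repeat and assigned the rest to GRCh38 transcripts with Salmon (Salmon 1.3.0 in the submitters' processing notes). The annotation release is not given in the sources used here. The deposited values, per transcript and library, are expected counts (estimated counts of reads, not normalized), TPM as the authors' Salmon run gave them, and transcript and effective lengths.

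Transcripts were matched without version to GENCODE release 44, which took 225662 of 228754. The unmatched ones held 1.03% to 1.13% of reads and were left out. Estimated counts were summed per gene and rounded. Counts were scaled by TMM and filtered by filterByExpr (minimum count 10), and 15426 genes were fitted in 1 model of 7 groups by edgeR's quasi-likelihood test (edgeR 4.0.16, limma 3.58.1, R 4.3.3). The common biological coefficient of variation was 12.3%. Benjamini-Hochberg adjustment ran over all genes tested in each of 15 comparisons. For a call, the adjusted p had to be under 0.05 and the log2 fold change at least 1 in size. The procedure was tested on simulated data. Intervals are at 95%. Log2 CPM for correlations used a prior count of 2.

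Named were the 8 members, list genes that were called, markers, and for each member the gene with the highest Pearson r of log2 CPM (3 genes for RN7SK and HEXIM1). List genes that passed by adjusted p alone were added after their values were seen. The members and lists were chosen with earlier results of these data known. Shared stretches were counted at 31 bases between GENCODE transcripts of genes in the tables. Alternatives were DESeq2 1.42.0, DESeq2 size factors, no filter, an offset for average transcript length, other call rules, the replicate number as a block, only 4 libraries, leaving out each library, pseudogene reads added to RN7SK, TPM for levels, and Spearman's rho. Leaving out mitochondrial genes before scaling was added after seeing the data. Sequences of promoters are from RefSeq and that of RN7SK from GENCODE. Counting was by transcript sequence, so overlapping genes on the opposite strand (ZCWPW1, CCNT2-AS1, HEXIM2-AS1, ENSG00000267288) rely on the strand setting, which is not given in the sources used here.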

Additional observations from a re-analysis of the deposited data

Results flagged for a closer look

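RN7SK reads differed between the compounds at the label 120 min. The test of the difference between RBI2 and CX-5461 gave 2.89 on the log2 scale (adjusted p = 0.00692), with 8.85 and 21.7 CPM for RBI2 and 2.57 and 1.45 CPM for CX-5461. It was lost without RBI2 120 min replicate 2 or without CX-5461 120 min replicate 2. RN7SL1, RN7SL2, RMRP and RPPH1 were higher in the same libraries, and their part in the result was not tested.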

How the results depend on the processing

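The calls counted over the members were 1 against the control, 1 between the compounds and 1 within a compound, each of them RN7SK. Under DESeq2, no filter on low counts, unadjusted p-values, or a model of only the 4 libraries compared, 2 were called within a compound, and with the offset for transcript length 0. With only the 4 libraries, 0 were called against the control. With no limit on the fold change, 5, 3 and 2 passed. Leaving out 1 library at a time gave 0 to 2 calls against the control, 0 to 1 between the compounds and 0 to 1 within a compound. The 2 against the control came without control replicate 1, when CCNT1 was called with RBI2 120 min (-1.01, adjusted p = 5.7e-04) and RN7SK still was. The calls of RN7SK at RBI2 120 min rest on 150 and 300 reads in 2 libraries of unequal level, and 7.62 times separates its highest from its lowest group mean.

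With the replicate number as a block, 1, 1 and 1 members were called, as without it, but CCNT2 no longer passed by adjusted p alone between the compounds at 120 min (-0.58, adjusted p = 0.0548). The numbers do not pair the libraries: the correlation of deviations between groups lay between -0.18 and 0.18 (median 0.00), and 3 of 21 pairs of groups were over 0.1. With mitochondrial genes left out before scaling, chosen after seeing the data, the counts were 1, 1 and 1, as with DESeq2 size factors and with pseudogene reads added. Of the values of single members, no called one changed sign. In the alternatives 17 called values fell short of the threshold and 55 did not, and 12 uncalled values passed it against 2691 that did not. The tally includes the looser call rules on the same fit, under which a called value could not fall short. Group levels as TPM, in place of CPM, moved beyond the spread of replicates in 39 of 48 ratios to the control, and 8 ratios changed side of 1, among them CCNT1 with RBI2 10 min (0.806 to 1.05) and CX-5461 30 min (0.735 to 1.03) and HEXIM1 with CX-5461 30 min (0.963 to 1.17). None of the 8 had passed the test.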

Other observations

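HEXIM2-AS1, which overlaps the end of HEXIM1 and the start of HEXIM2 on the opposite strand, was listed at 0 to 0.330 CPM, ENSG00000267288, opposite the end of HEXIM2, at 0.959 to 1.87 CPM (HEXIM2 itself had 3.06 to 5.72 CPM), CCNT2-AS1 at 1.17 to 3.20 CPM and ZCWPW1, antisense to the start of MEPCE, at 1.39 to 3.46 CPM. The microRNAs inside LARP7, on the opposite strand (MIR302A, MIR302B, MIR302C, MIR302D and MIR367) had 0 reads in every library. Among short RNAs with too few reads to be tested, none of the 17 exceeded 24 reads in any library.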
